A study of Mus musculus with 4 samples.

Results

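The genes examined were Lsm1 to Lsm8, which encode the like-Sm (LSm) proteins that build the ring around the 3′ end of U6 snRNA and its cytoplasmic counterpart. All entries of the isoform table whose Ensembl gene identifier carried 1 of these 8 symbols were taken, which gave 60 entries for 8 of the 14949 genes in the table. The libraries were Nanopore cDNA-PCR libraries of cultured primary neural stem cells from floxed mouse embryos, read to ask whether Tut1 affects mRNA splicing. Each genotype had 1 library. The control was Tut1f/f cells given an empty lipid nanoparticle (LNP), while Tut1f/f cells, Trp53f/f cells and cells with both floxed genes (Tut1f/f;Trp53f/f) were given LNP with mRNA for the Cre recombinase, which cuts out floxed exons. The treatment lasted 3 days. The 3 libraries with Cre mRNA are named below by what their labels say was deleted, as the Tut1-labelled (Tut1f/f;Cre), Trp53-labelled (Trp53f/f;Cre) and both-labelled (Tut1f/f;Trp53f/f;Cre) libraries, and values are given in the order control, Tut1-labelled, Trp53-labelled, both-labelled. All 4 cell populations carried floxed alleles, and only the control lacked Cre mRNA, so genotype, Cre mRNA and library cannot be told apart between the control and the other libraries. No difference has a replicate check, and the intervals cover counting error only, since reads amplified by PCR and carrying no molecular identifier can stem from the same molecule.

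LSm proteins form rings of 7 subunits that hold the uridine-rich 3′ end of an RNA. The nuclear Lsm2-8 ring binds the oligo(U) tail of U6 snRNA, the tail that Tut1 extends, and helps U6 pair with U4 and enter the spliceosome. The cytoplasmic Lsm1-7 ring binds the 3′ end of deadenylated mRNA and promotes removal of the cap. Lsm2 to Lsm7 belong to both rings, whereas Lsm8 marks the nuclear ring and Lsm1 the cytoplasmic ring.

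Between 2863392 and 4244467 reads per library named a gene, and the LSm genes held 6880, 5922, 7176 and 6790 of them. The share of reads that named no gene was 17.2% in the control and 27.3% to 30.2% in the Cre libraries. Tut1 had 37, 11, 14 and 27 reads in that order, so the both-labelled library did not have fewer Tut1 reads than the Trp53-labelled library, and the latter, whose Tut1 was not floxed, had 2.32-fold less per gene read than the control. The study's Tut1 deletion removes part of the gene, and reads of whole isoforms need not fall with it. The study measured it by the deleted exon in Tut1f/f cells and reports efficient deletion. Trp53 had 175, 67, 10 and 19 reads. Of 10 neural stem cell markers 8 were detected, with a summed level of 11528 to 13317 CPM per library (CPM, reads per 1000000 gene reads after scaling), whereas Msi1 and Notch1 had 0 reads in each. None of 5 microglia and 4 endothelial markers had a read, and 3 reads would be 0.754 to 1.02 CPM. The 6 oligodendrocyte lineage markers summed to 354 CPM in the control and 475 to 676 CPM in the Cre libraries, and the 5 astrocyte markers, with Gfap at 0 reads, to 385 and 215 to 319 CPM. The 6 neuron markers summed to 67.7 to 84.7 CPM. In bulk cultures fewer cells of a type and less RNA per cell cannot be told apart, and the part of these markers in the results below was not tested.

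Lsm2 on chromosome 17 (34981862 to 34985891, plus strand, GRCm38) carries the main difference, and its transcripts differ in their first exon. The upstream first exon of ENSMUST00000114011 ends with the start codon, whereas the downstream first exon of ENSMUST00000007266 carries 37 codons of its own, so the annotated proteins have 95 and 131 residues. ENSMUST00000174241 joins the upstream first exon past exon 2 and is annotated as noncoding. The joins are shown because they tell the transcripts apart, with 15 bases of the first exon in lower case and 15 bases of the next exon in capitals, 5′ to 3′, from the GENCODE M21 transcripts.
Upstream first exon (ends at 34982085) to exon 2 (starts at 34982620): ggcgccagcaccatgCTCTTCTACTCCTTT
Downstream first exon (ends at 34982367) to exon 2: gaggactttgtgaggCTCTTCTACTCCTTT
Upstream first exon to the exon starting at 34985109, exon 2 left out: ggcgccagcaccatgCATCTGTGGAACCCT

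The coding bases that only the downstream first exon adds, chr17:34982257-34982367 on the plus strand, are shown because they are what distinguishes the longer annotated protein, with the start codon in capitals.
Downstream first exon, coding part: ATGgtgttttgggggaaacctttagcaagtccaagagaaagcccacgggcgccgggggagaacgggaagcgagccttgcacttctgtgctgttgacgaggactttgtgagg

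The bases before the upstream start are shown because reads of the transcript with that start differed most between libraries. They are the 250 bases of the RefSeq promoter window (GRCm38.p6), chr17:34981604-34981853, plus strand, with matches to the searched motifs in capitals.
Lsm2 upstream promoter: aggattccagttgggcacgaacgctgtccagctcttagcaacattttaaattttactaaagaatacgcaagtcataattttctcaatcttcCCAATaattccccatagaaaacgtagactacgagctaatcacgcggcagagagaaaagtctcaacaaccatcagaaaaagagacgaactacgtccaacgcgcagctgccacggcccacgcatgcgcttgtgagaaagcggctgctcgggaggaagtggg

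Both strands were searched for CCAAT, the GC box GGGCGG, the TATA box TATAAA, the ETS core CCGGAAG and the E-box CACGTG. The upstream Lsm2 window held CCAAT, as did 33.8% of all 32851 windows, and the window of the downstream Lsm2 start held GGGCGG, as did 32.7% of all windows. The base composition of these windows differed, with 47.6% G and C before the upstream start and 72% before the downstream start. RefSeq gave 8 windows for 6 of the 8 LSm genes, of which 6 held GGGCGG and 2 CCAAT. The CCGGAAG motif, in 6.91% of all windows, was in the window of Lsm5. TATAAA (12.4%) and CACGTG (6.02%) were in no LSm window. A match describes letters in the window only.

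**Figure D1:**
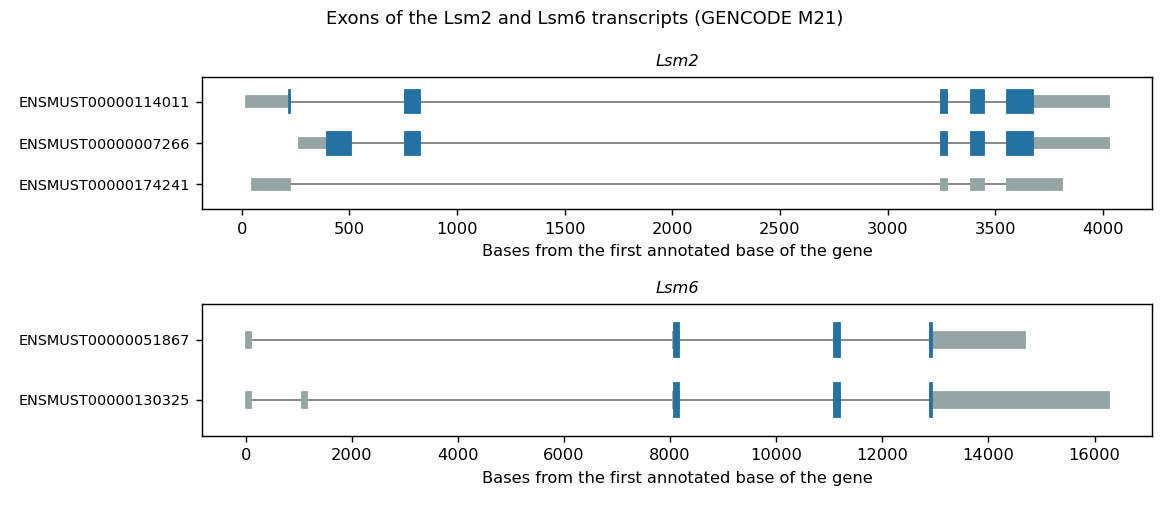
Exons of the named Lsm2 and Lsm6 transcripts in bases from the first annotated base of each gene. Tall blue boxes are coding parts of exons, low grey boxes noncoding parts and lines introns. The Lsm2 transcripts start at different first exons, and ENSMUST00000130325 of Lsm6 has a further noncoding exon and a longer last exon than ENSMUST00000051867.

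Lsm2 was the LSm gene whose level differed most between libraries. It encodes the ring subunit next to Lsm8 in the nucleus and next to Lsm1 in the cytoplasm. It had 520 reads in the control, 96 in the Tut1-labelled library, 122 in the Trp53-labelled library and 108 in the both-labelled library, or 131, 31.7, 35 and 36.6 CPM. The control stood apart, and the counting intervals of the 3 Cre libraries overlapped, running from 25.7 to 44.2 CPM in all. Relative to the control, Lsm2 was 4.13-fold lower in the Tut1-labelled library, with a log2 ratio of -2.04 (95% interval -2.37 to -1.73). It was 3.73-fold lower in the Trp53-labelled library (log2 ratio -1.90, -2.20 to -1.61) and 3.57-fold lower in the both-labelled library (-1.84, -2.15 to -1.54). These 3 comparisons share the control library. Between the both-labelled and Trp53-labelled libraries the log2 ratio was 0.06 (-0.32 to 0.45), and between the Tut1-labelled library and the Trp53-labelled library it was -0.14 (-0.54 to 0.25). The lower Lsm2 level was thus found in each library with Cre mRNA, whether its label names Tut1 or not.

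A gene was counted as different between 2 libraries when its ratio was at least 2-fold and its 95% interval excluded no change. By this rule 1 of 8 LSm genes, Lsm2, was lower in the Tut1-labelled library than in the control, where 13.3% of 9882 tested genes were lower and 26% differed in either direction. The same 1 of 8 was lower in the Trp53-labelled library (15.3% of genes lower, 27.8% either way) and in the both-labelled library (9.76% lower, 20.1% either way). Between the both-labelled and Trp53-labelled libraries none of the 8 passed, beside 7.24% of all genes. None passed between the both-labelled library and the Tut1-labelled library (4.49% of all genes) or between the Tut1-labelled library and the Trp53-labelled library (3.35%). With 1 of 8 past the rule, the share of LSm genes was close to the background share of genes lower. With no fold minimum, the interval excluded no change for 7 of 8 LSm genes in the Tut1-labelled library against the control (55.3% of all genes), 6 in the Trp53-labelled library (57.5%) and 7 in the both-labelled library (49%). It did so for 4 between the both-labelled and Trp53-labelled libraries (33% of all genes), 6 between the both-labelled and Tut1-labelled libraries (24.7%) and 2 between the Tut1-labelled and Trp53-labelled libraries (18.7%).

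**Figure D2:**
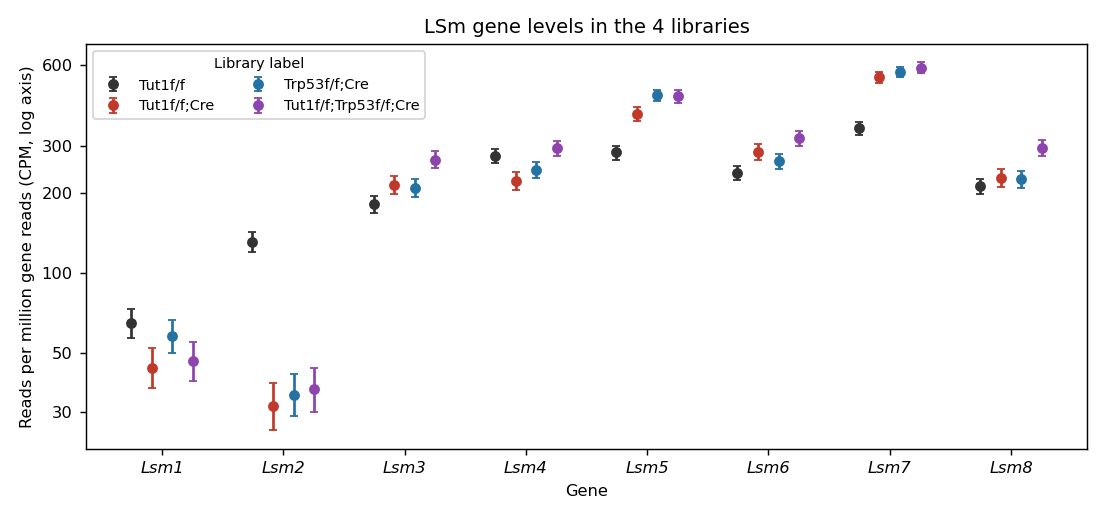
Level of each LSm gene in the 4 libraries, in CPM on a log axis. Points are libraries and bars exact Poisson 95% intervals. Lsm2 fell from 131 CPM in the control to 31.7 to 36.6 CPM in the Cre libraries, and Lsm3, Lsm5, Lsm6, Lsm7 and Lsm8 were lowest in the control.

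The reads that Lsm2 lost were mainly those assigned to the transcript with the upstream first exon. ENSMUST00000114011, the transcript of that exon, had 358 reads in the control and 32, 56 and 30 in the Cre libraries, or 90, 10.6, 16.1 and 10.2 CPM. It was 8.52-fold, 5.6-fold and 8.85-fold below the control. ENSMUST00000007266, which starts downstream, had 91, 47, 57 and 60 reads, or 22.9, 15.5, 16.4 and 20.3 CPM. Its log2 ratio to the control was -0.56 (-1.10 to -0.04), -0.48 (-0.99 to 0.01) and -0.17 (-0.67 to 0.32). Scaling by library total adds 0.12 to the first of these ratios, more than the distance of its interval from no change. The upstream transcript was the more read one in the control and the downstream one in the Tut1-labelled and both-labelled libraries, and in the Trp53-labelled library they were nearly level, at 56 and 57 reads. A read that stops short of the first exon cannot tell these transcripts apart, and how such reads were assigned is not given. The part of read completeness in these counts was not tested.

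As a share of Lsm2 reads, ENSMUST00000114011 made up 68.8% in the control and 33.3%, 45.9% and 27.8% in the Cre libraries. ENSMUST00000007266 made up 17.5%, 49%, 46.7% and 55.6%. Isoforms were compared between 2 libraries with a two-sided Fisher's exact test of their reads, and called at a false discovery rate (FDR) under 0.05 over all isoforms tested and a difference of at least 10 percentage points. This test compares libraries, not conditions. Both Lsm2 transcripts were called against the control in each Cre library. For ENSMUST00000114011 the differences were -35.5 points (exact test, FDR 1.21e-08), -22.9 points (7.78e-05) and -41.1 points (8.03e-13). For ENSMUST00000007266 they were 31.5 points (exact test, FDR 2.53e-08), 29.2 points (8.02e-09) and 38.1 points (8.9e-13). Between Cre libraries the share of ENSMUST00000114011 was 18.1 points lower in the both-labelled library than in the Trp53-labelled library, a difference that was not called (exact test, FDR 0.136), and 12.6 points lower in the Tut1-labelled library than in the Trp53-labelled library (FDR 0.673). These shares rest on 96 to 122 Lsm2 reads per Cre library, which give the 45.9% of the Trp53-labelled library a Wilson 95% interval of 37.3% to 54.7%.

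Summed over the plain transcripts that start at the downstream exon, the downstream share was 19.8% in the control and 53.1%, 48.4% and 62% in the Cre libraries. A variant of ENSMUST00000174241, whose own exons the table does not give, had 25 reads in the control and 5, 1 and 1 in the Cre libraries. It made up 4.81%, 5.21%, 0.82% and 0.926% of Lsm2 reads, its usage could be tested against the control only, and it was called in none of those 3 tests. It is outside the rule for named isoforms and was chosen after its values were seen. Annotated retained-intron transcripts of Lsm2 had 6, 5, 1 and 7 reads, which were 1.15%, 5.21%, 0.82% and 6.48% of Lsm2 reads. These shares were higher in both libraries whose labels name Tut1 deletion than in both others, on 7 reads or fewer. The Wilson 95% interval of the control overlapped that of the Tut1-labelled library and not that of the both-labelled library (3.17% to 12.8%). Over the 8 LSm genes transcripts annotated as retained intron made up 1.16%, 1.23%, 1.11% and 1.15% of reads. The share was highest in the control for Lsm5, Lsm7 and Lsm8 and lowest there for Lsm3 and Lsm6. This class leaves out ENSMUST00000220225 of Lsm7, annotated as coding, whose last exon spans an intron. It had 67 reads in the control and 21, 32 and 16 in the Cre libraries, so these shares do not cover all intron-holding transcripts.

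**Figure D3:**
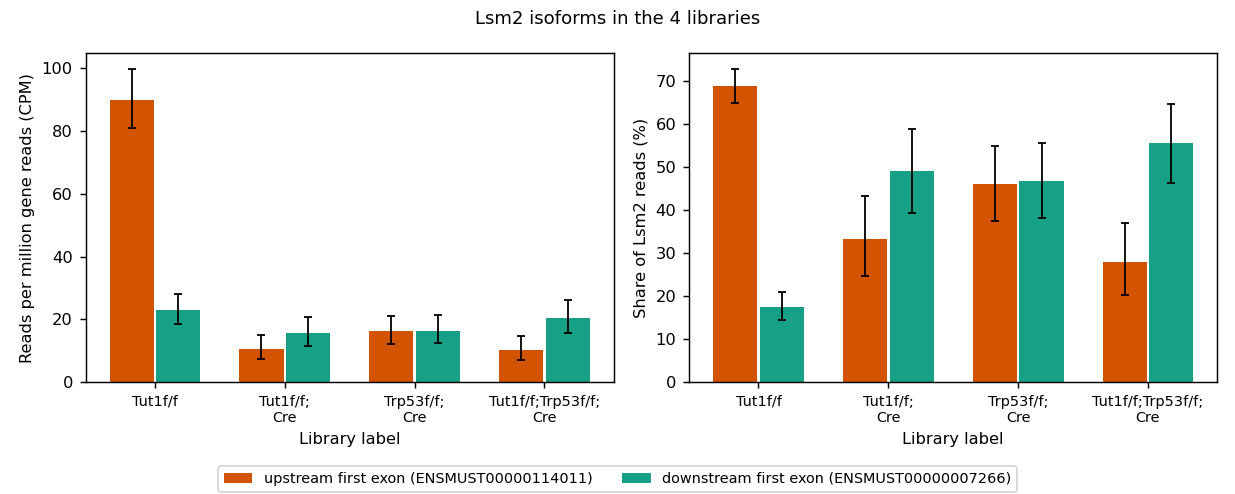
Lsm2 transcripts with the upstream and the downstream first exon in the 4 libraries, as CPM with exact Poisson 95% intervals (left) and as a share of Lsm2 reads with Wilson 95% intervals (right). The upstream transcript dropped from 90 to between 10.2 and 16.1 CPM, while the downstream transcript ranged from 15.5 to 22.9 CPM.

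Among 5584 genes with at least 50 reads on average, those with a pattern over the 4 libraries close to that of Lsm2 included Coro1c, Cuedc2, Sirt2 and Gt(ROSA)26Sor. Likeness was the Euclidean distance between centred log2(CPM + 0.5) values, which was 0.13 for Coro1c and 0.18 for Gt(ROSA)26Sor. Coro1c, an actin-binding protein of the coronin family, had 141 reads in the control and 24, 31 and 25 in the Cre libraries. Coro1c was chosen by this distance, so that it was highest in the control like Lsm2 follows from the choice. The distance was taken over 4 libraries only.

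Lsm8 and Lsm1 are the subunits that tell the rings apart, and neither was past the 2-fold rule in any pair of libraries. Lsm8 (chromosome 6, 18848579 to 18855751, plus strand) had 838, 688, 779 and 867 reads, or 211, 227, 224 and 294 CPM. The both-labelled library was the highest, and the intervals of the other 3 overlapped. Its log2 ratio to the Trp53-labelled library was 0.39 (0.25 to 0.54), and that of the Tut1-labelled library to the control was 0.11 (-0.04 to 0.26). From 95.9% to 97.2% of Lsm8 reads per library were the coding transcript ENSMUST00000056398. Lsm1 (chromosome 8, 25785288 to 25803975, plus strand) had 258, 134, 202 and 138 reads, or 64.9, 44.2, 58 and 46.8 CPM. Both libraries whose labels name Tut1 deletion were lower than both others, yet the interval of the both-labelled library overlapped that of the Trp53-labelled library. The log2 ratio of the Tut1-labelled library to the control was -0.55 (-0.86 to -0.25), and that of the both-labelled library to the Trp53-labelled library was -0.31 (-0.63 to 0.01).

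Of Lsm1 reads 63.2% were ENSMUST00000038421 in the control and 70.3% to 71% in the Cre libraries. A variant of this transcript made up 17.8%, 14.9%, 19.8% and 16.7%. An isoform named by a read made up 15.1% in the control and 11.2%, 5.45% and 9.42% in the Cre libraries, and its difference of -9.67 points in the Trp53-labelled library fell just short of the minimum of 10 (exact test, FDR 0.00895). No Lsm1 isoform was called in any pair of libraries.

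Lsm5 and Lsm7 are neighbours in both rings. Like Lsm3 and Lsm6 below, both had intervals above no change in each Cre library against the control, and their log2 ratios in the Tut1-labelled and Trp53-labelled libraries were the highest of the 8 genes. Lsm7 (chromosome 10, 80852821 to 80855209, minus strand) had 1386, 1637, 1972 and 1732 reads, or 348, 540, 566 and 587 CPM. The control lay below the others, whose intervals all overlapped. Its log2 ratios to the control were 0.63 (0.53 to 0.74), 0.70 (0.60 to 0.80) and 0.75 (0.65 to 0.86). A processed pseudogene, Gm10146, matched the Lsm7 coding sequence at 100% identity over 100% of its length. The reads of that gene, 411, 427, 481 and 381, were 18% to 22.9% of the reads of both, and all were in 1 entry named by a read, whose sequence the table does not give, while the annotated transcript that matched had 0. Reads of the parent and the copy may be exchanged, so the Lsm7 level is uncertain. With the copy added, the log2 ratios of Lsm7 to the control were 0.59, 0.64 and 0.66.

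Lsm5 (chromosome 6, 56701063 to 56704710, minus strand) had 1124, 1195, 1614 and 1353 reads, or 283, 395, 463 and 459 CPM. The control was the lowest, the Tut1-labelled library lay between, and the other libraries overlapped. The log2 ratios to the control were 0.48 (0.36 to 0.60), 0.71 (0.60 to 0.82) and 0.70 (0.58 to 0.81). Each copy of Lsm5 in the table held 2 reads or fewer per library. Most Lsm5 reads, 84.7% to 88.3%, were ENSMUST00000170382, and most Lsm7 reads, 84.7% to 89%, were ENSMUST00000035775. ENSMUST00000220225, a longer Lsm7 transcript (1129 against 468 bases) whose last exon spans the last intron of ENSMUST00000035775 and whose coding part is shorter (78 against 103 codons), had 67 reads in the control and 21, 32 and 16 in the Cre libraries, 4.83% of Lsm7 reads against 1.28%, 1.62% and 0.924%. Its share differed from the control in the exact test (FDR 3.47e-07, 4.19e-06 and 1.58e-09), but a share of 4.83% in the control cannot fall by the 10 points a call needed. It is outside the rule for named isoforms and was chosen after its values were seen.

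Lsm3 and Lsm6 sit side by side in the ring and, like Lsm4, Lsm7 and Lsm8, were highest in the both-labelled library. Lsm3 (chromosome 6, 91515928 to 91522625, plus strand) had 720, 646, 725 and 786 reads, or 181, 213, 208 and 266 CPM. The log2 ratio of the both-labelled library to the Trp53-labelled library was 0.36 (0.21 to 0.50), and those of the Tut1-labelled and Trp53-labelled libraries to the control were 0.24 (0.08 to 0.39) and 0.20 (0.05 to 0.35). From 78.3% to 81.4% of Lsm3 reads were ENSMUST00000040607, and 9.1% to 11.8% were ENSMUST00000206947, which codes for the same number of residues.

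Lsm6 (chromosome 8, 78804865 to 78821140, minus strand) had 941, 857, 914 and 942 reads, or 237, 283, 262 and 319 CPM. The log2 ratios of the Tut1-labelled and Trp53-labelled libraries to the control were 0.26 (0.12 to 0.39) and 0.15 (0.02 to 0.28), and that of the both-labelled library to the Trp53-labelled library was 0.28 (0.15 to 0.42). Annotated pseudogene copies of Lsm6 held 8 reads or fewer per library.

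The transcripts of Lsm6 differed between libraries outside the coding sequence. ENSMUST00000051867 has 4 exons, and ENSMUST00000130325 has 5, with a noncoding exon of 99 bases at 78819987 to 78820085 and a longer last exon, while both code for the same 80 residues. The joins after exon 1 are shown because they tell these transcripts apart, in the direction of the gene, with 15 bases of exon 1 in lower case and 15 bases of the next exon in capitals.
Exon 1 (ends at 78821048) to the exon of the start codon (begins at 78813080): ggatccggctgcaagGGTTGTTAAACATGA
Exon 1 to the further noncoding exon (begins at 78820085): ggatccggctgcaagATGAGCCTGGGGCCG

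ENSMUST00000051867 had 445, 491, 463 and 552 reads, which were 47.3%, 57.3%, 50.7% and 58.6% of Lsm6 reads. ENSMUST00000130325 had 419, 291, 384 and 326 reads, which were 44.5%, 34%, 42% and 34.6%. The 4-exon transcript took a larger share, and the 5-exon transcript a smaller one, in both libraries whose labels name Tut1 deletion than in both others. These transcripts have 2107 and 3792 bases, and the joins shown lie near their 5′ ends. How many reads reach them is not known, and the part of read length in these shares was not tested. Against the control, the Tut1-labelled library differed by 10 points for ENSMUST00000051867 (exact test, FDR 0.000556), at the minimum for a call and 9.55 points with variants of a transcript merged into it, and by -10.6 points for ENSMUST00000130325 (FDR 0.000149). The both-labelled library differed from the control by 11.3 points for ENSMUST00000051867 (exact test, FDR 4.3e-05) and by -9.92 points for ENSMUST00000130325 (FDR 0.000369), of which the former was called. Against the Trp53-labelled library it differed by 7.94 points for ENSMUST00000051867 (exact test, FDR 0.0331) and by -7.41 points for ENSMUST00000130325 (FDR 0.048), under the minimum of 10 points. In CPM, ENSMUST00000051867 had 112 in the control and 162 in the Tut1-labelled library, a log2 ratio of 0.53 (0.35 to 0.72), whereas ENSMUST00000130325 had 105 and 96.1 CPM (-0.13, -0.35 to 0.09). The share of the upstream Lsm2 transcript above was also lower in both libraries whose labels name Tut1 deletion than in both others. That share was called in no pair of Cre libraries, and how many of all isoforms show this order was not counted. Whole-isoform Tut1 reads do not test those labels.

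**Figure D4:**
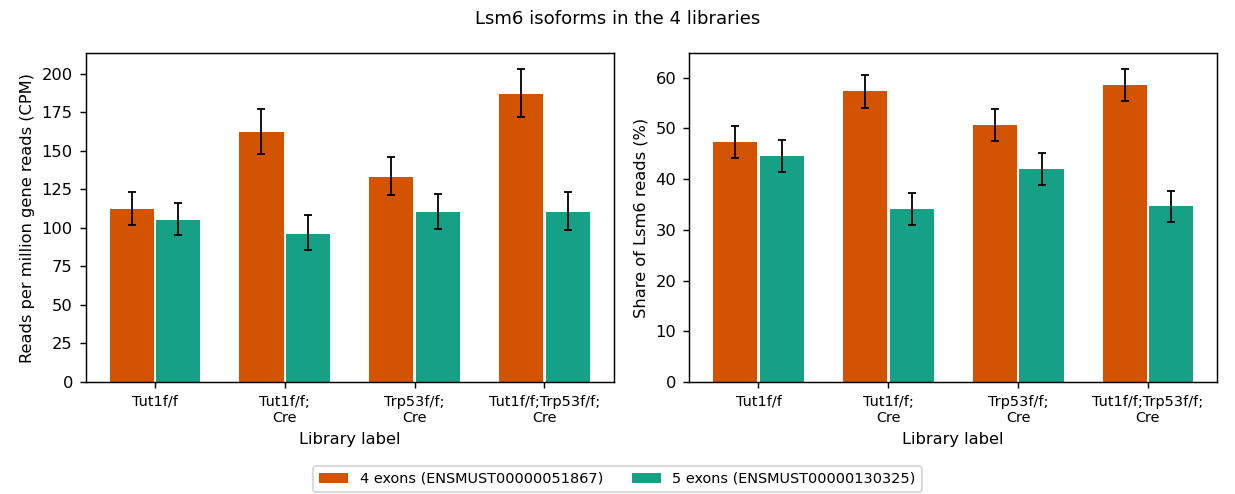
Lsm6 transcripts with 4 and with 5 exons in the 4 libraries, as CPM with exact Poisson 95% intervals (left) and as a share of Lsm6 reads with Wilson 95% intervals (right). The 4-exon share was 47.3% and 50.7% in the control and Trp53-labelled libraries, and 57.3% and 58.6% in the Tut1-labelled and both-labelled libraries.

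In all, 4 of 47 LSm isoforms tested were called in the Tut1-labelled library against the control, where 8.58% of all isoforms tested were called. The count was 2 of 46 in the Trp53-labelled library (9.03% of all) and 3 of 47 in the both-labelled library (6.44%). These calls were the Lsm2 and Lsm6 transcripts above. None of 43 was called between the both-labelled library and the Trp53-labelled library (1.22% of all), none of 42 between the both-labelled library and the Tut1-labelled library (0.149%), and none of 42 between the Tut1-labelled library and the Trp53-labelled library (0.214%).

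Lsm4 (chromosome 8, 70673248 to 70678752, plus strand), whose protein was one of those that the study immunoprecipitated, had 1093, 669, 848 and 864 reads, or 275, 221, 243 and 293 CPM. It was lower in the Tut1-labelled library than in the control, with a log2 ratio of -0.32 (-0.46 to -0.18), and higher in the both-labelled library than in the Trp53-labelled library, with a log2 ratio of 0.27 (0.13 to 0.41). Its log2 ratio of the Trp53-labelled library to the control was -0.18 (-0.31 to -0.04), which was -0.06 when scaled by library total, and between the Tut1-labelled and Trp53-labelled libraries it was -0.14 (-0.29 to 0.01). The Tut1-labelled library differs from the control by Cre mRNA as well as by the Tut1 label, and these cannot be told apart there. From 78.5% to 81.2% of Lsm4 reads were ENSMUST00000034311.

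Per kilobase of the transcript of each gene most read over the 4 libraries, the order of levels in the control was Lsm7 (745 CPM per kb), Lsm5 (572), Lsm4 (297), Lsm8 (261), Lsm3 (244), Lsm2 (156), Lsm6 (112) and Lsm1 (24.4). The counting intervals of Lsm8 and Lsm3 overlapped. In the Tut1-labelled library Lsm2 had 37.7 CPM per kb, below the 134 of Lsm6 and above the 16.6 of Lsm1. In the other Cre libraries it had 41.7 and 43.6 CPM per kb and stood between the same genes. This order depends on the division by length, since a read of a cDNA library can span a whole molecule. By CPM alone the control order was Lsm7 (348), Lsm5 (283), Lsm4 (275), Lsm6 (237), Lsm8 (211), Lsm3 (181), Lsm2 (131) and Lsm1 (64.9), with Lsm6 above Lsm2. In each Cre library Lsm2 was then below Lsm1, at 31.7 against 44.2, 35 against 58 and 36.6 against 46.8 CPM.

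**Figure D5:**
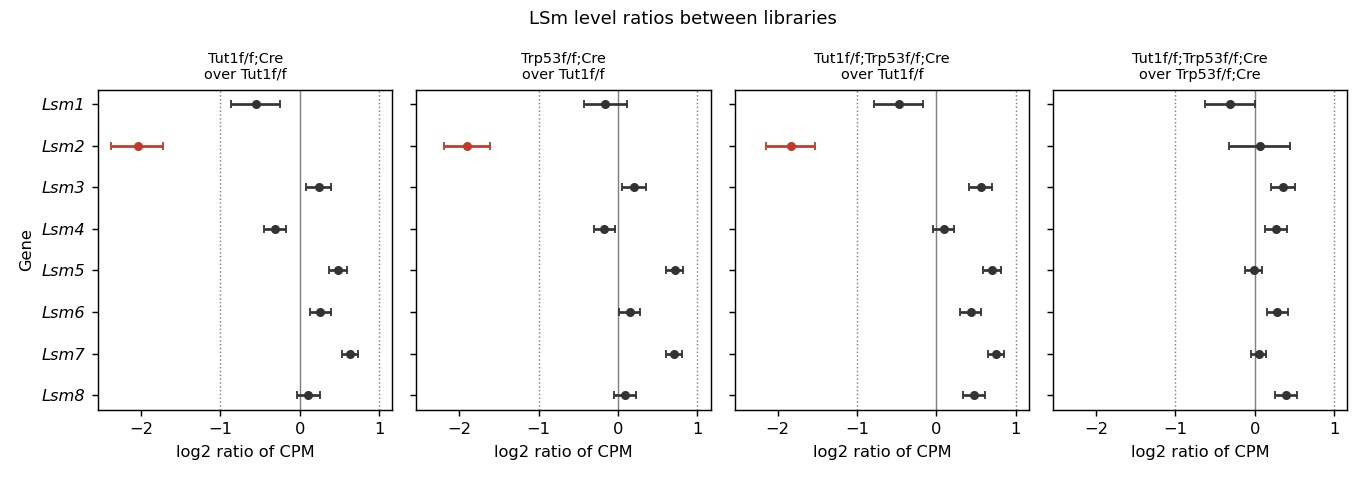
log2 ratios of LSm levels between libraries, with exact 95% intervals for counting error. Dotted lines mark a 2-fold difference and red points the ratios counted as different. Lsm2 lies at -2.04, -1.90 and -1.84 against the control and at 0.06 between the both-labelled and Trp53-labelled libraries.

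Without Lsm2 the LSm genes summed to 1599 CPM in the control and 1924, 2024 and 2265 CPM in the Cre libraries. On the log2(CPM + 0.5) scale the median ratio over the 8 genes was 0.17 in the Tut1-labelled library against the control, beside -0.01 over all genes tested. It was 0.12 in the Trp53-labelled library (-0.02 over all genes), 0.46 in the both-labelled library (-0.01) and 0.16 in the both-labelled library against the Trp53-labelled library (0.03). It was 0.21 in the both-labelled against the Tut1-labelled library (0.03) and -0.10 in the Tut1-labelled against the Trp53-labelled library (0.02).

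In edgeR's quasi-likelihood fit with a term each for Tut1 and Trp53 deletion, where 4 libraries give 1 residual degree of freedom, no LSm gene was called at an FDR under 0.05 and 2-fold for Tut1 status (0% of 9882 genes called) or for Trp53 status (0.0101% called). No LSm gene had an unadjusted p under 0.05 in either test, while 187 and 153 genes did. DESeq2 also called none of the 8. Neither fit has a term for Cre mRNA, so a gene lower in every Cre library, as Lsm2 was, is poorly described by it. The absence of a call for such a gene therefore says little about its level. In the edgeR fit Trp53 itself, a deleted gene, had an FDR of 0.0534 for Trp53 status. The FDR of Lsm2 was 1 for either status. With the Trp53-labelled library left out, Lsm2 was called for Tut1 status (edgeR, log2 fold change -1.95, FDR 2.15e-08), as were 1850 of 10328 genes, and with the Tut1-labelled library left out it was called for Trp53 status (-1.87, FDR 0.000121), as were 1435 of 10567 genes. In both of those fits the control alone stood against 2 Cre libraries, and its spread was taken to be like theirs. edgeR's usage model called 0 of 37 LSm isoforms for Tut1 status (0% of 10949 called), with 1 of the 37 and 43 of all at an unadjusted p under 0.05.

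Proteins that work with the LSm rings were compared by the same ratio rule. Of the 8 Sm genes, whose proteins form the ring of the other spliceosomal snRNAs, 1 was past the rule in each Cre library against the control, where 26%, 27.8% and 20.1% of all genes were past it in either direction and 13.3%, 15.3% and 9.76% were lower. Snrpb, the gene of SmB, had 1648 reads in the control and 331, 320 and 404 in the Cre libraries, 3.79-fold, 4.51-fold and 3.03-fold lower per gene read. Of 8 genes of mRNA decay that act with the Lsm1-7 ring, likewise 1 was past the rule in each, Xrn1, the 5′ to 3′ exonuclease. It had 19 reads in the control and 44, 44 and 46 in the Cre libraries, 3.04-fold, 2.64-fold and 3.26-fold higher.

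Of 14 genes of U6 processing and the tri-snRNP, 4 were past the rule in the Tut1-labelled library against the control (26% of all genes), 2 in the Trp53-labelled library (27.8%) and 3 in the both-labelled library (20.1%). Between the both-labelled and Trp53-labelled libraries 3 of the 14 were past it (7.24% of all genes). Usb1, the exonuclease that trims the U6 tail, had 78 reads in the control and 20, 19 and 20 in the Cre libraries, so that it was lower in each. Snrnp200, the helicase that unwinds U4 from U6, had 293 reads in the control and 774, 515 and 738 in the Cre libraries, 3.47-fold, 2.01-fold and 3.4-fold higher. Prpf8, the central protein of the spliceosome, had 73, 131, 73 and 149 reads, and was 2.36-fold higher in the Tut1-labelled library than in the control and 2.41-fold higher in the both-labelled than in the Trp53-labelled library. Prpf3, a protein of the U4/U6 snRNP, had 111, 96, 53 and 143 reads and was 3.19-fold higher in the latter pair, in which Mettl16, which methylates U6, was 2.19-fold higher (89 against 48 reads). Mepce had 10, 23, 12 and 11 reads and was 3.02-fold higher in the Tut1-labelled library than in the control. Between the Tut1-labelled and Trp53-labelled libraries 3 of the 14 were past the rule (3.35% of all genes), namely Mepce (2.21-fold), Prpf3 (2.08-fold) and Prpf8 (2.06-fold), all higher in the former. None of the 14 was past it between the both-labelled and Tut1-labelled libraries (4.49% of all genes). Of 8 other genes with an LSm domain 7 were tested. Gemin7, of the SMN complex, was 2.55-fold lower in the Tut1-labelled library than in the control and 2.12-fold and 2.79-fold lower in the Trp53-labelled and both-labelled libraries, and Lsm14b was 2.27-fold lower in the both-labelled library than in the Trp53-labelled library.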

How the data were processed

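The authors deposited 1 table of isoforms with unnormalized whole read counts for each library. The study names minimap2 and FLAIR for Nanopore reads of pallium samples, and for this table the aligner, counter and filters were not given in the sources used here, and the build was mm10 per the labels. Entries naming no gene were left out. The members and gene lists were chosen with earlier results of these data known. Gene reads were isoform reads summed per identifier, with names, exons and positions (1-based) from GENCODE M21. CPM values used edgeR's TMM scaling, with factors of 0.937, 1.02, 1.02 and 1.03. Ratios had exact binomial, CPM exact Poisson and shares Wilson 95% intervals. Usage was tested with Fisher's exact test for isoforms with at least 10 reads in genes with at least 20 reads per library. Genes passing edgeR's default expression filter were tested, and all 8 LSm genes passed. Sequence copies were sought with BLAST 2.17.0 at a minimum of 85% identity over 50% of the coding sequence. Strand and multiple matches are not given for the table, so overlapping neighbours and copies may exchange reads. Named isoforms had at least 10 reads over the libraries and 10% of gene reads in 1, or were called. List genes named were past the ratio rule, up to 5 per list by size. Likeness was measured over genes with a mean of at least 50 reads. Of the 5 genes nearest to Lsm2, 1 is not reported here. Other features named were chosen after their values were seen. R 4.3.3, edgeR 4.0.16, DESeq2 1.42.0, Python 3.11.15 and scipy 1.17.1 were used. The edgeR gene fit and the exact test were also run on simulated counts, and the outcome is not reported here. The counts simulated for the edgeR fit held changes by Tut1 status only and no Cre effect.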

Additional observations from a re-analysis of the deposited data

Results flagged for a closer look

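Lsm4 differed in opposite directions in the pairs of libraries that differ by the Tut1 label. Its log2 ratio was -0.32 in the Tut1-labelled library over the control and 0.27 in the both-labelled library over the Trp53-labelled library, and both counting intervals excluded no change. The first pair also differs by Cre mRNA, and the log2 ratio of the Trp53-labelled library to the control was -0.18 (-0.31 to -0.04), or -0.06 when scaled by library total. The difference between these effects was not tested, since each rests on 1 library a side.

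Table entries that name no gene were used in no comparison. Those placed within the Lsm1 locus had 8 reads in the control and 40, 39 and 27 reads in the Tut1-labelled, Trp53-labelled and both-labelled libraries. Per gene read they were above the control in each, with log2 ratios of 2.71, 2.48 and 2.19. The share of all reads that named no gene was also higher in these libraries, at 27.3% to 30.2% against 17.2%, and its part in the Lsm1 values was not tested. At the other 7 loci no library's interval lay above the control.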

How the results depend on the processing

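Lsm2 was the LSm gene past the ratio rule against the control under the other scalings (library total and DESeq2 size factors), without a filter on low counts, with plain Ensembl transcripts only, and with pseudogene copies added, an alternative chosen after seeing the data. At 1.5-fold the counts against the control were 2 in the Tut1-labelled library, 3 in the Trp53-labelled library and 3 in the both-labelled library, by the addition of Lsm7 and, in the latter pair, Lsm5. With no fold minimum they were 7, 6 and 7, and the counts were 4 in the both-labelled library over the Trp53-labelled library, 6 over the Tut1-labelled library and 2 in the Tut1-labelled library over the Trp53-labelled library. At a minimum of 20 points 2 LSm isoforms were called in the Tut1-labelled library against the control in place of 4. Leaving out 1 library gave from 0 to 1 LSm genes called for Tut1 status and from 0 to 1 for Trp53 status, and over all genes 1850 calls for Tut1 status without the Trp53-labelled library and 1435 for Trp53 status without the Tut1-labelled library, in place of 0 and 1. Of 528 values of single genes and isoforms under alternatives 483 kept their side of the threshold, 36 came past it, mostly by a lower fold minimum, 8 moved under scaling by library total and 1 lost its call, ENSMUST00000051867 of Lsm6 in the Tut1-labelled library with variants merged (9.55 points), and none that was called changed sign. Scaling by library total raised the median ratio to the control by 0.12 in the Tut1-labelled library, 0.12 in the Trp53-labelled library and 0.14 in the both-labelled library on the log2 scale. No paired analysis was possible because each genotype had 1 library. Depth limits Lsm2 usage, with 96 to 122 reads per Cre library.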
